A study of Mus musculus with 6 samples.

Results

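The epidermal differentiation complex is a cluster of genes on mouse chromosome 3 whose products build the outer layers of the skin. Its members were taken by gene symbol: every late cornified envelope (Lce), small proline-rich (Sprr) and S100a gene, and a fixed set of single genes such as Ivl, Lor, Flg, Hrnr, Rptn and Prr9. Of the 16331 probe sets tested, 45 met this rule, each the only probe set of its gene, and all 45 lie on chromosome 3. The RefSeq gene table holds 67 genes of the rule on that chromosome, and the other 22 (among them Flg2, Crnn, Pglyrp3, Pglyrp4 and S100a11) were not analysed here. Skin of 3 wild type mice was compared with skin of 3 mice carrying Hoxc13tm1Mrc, labelled a knockout of the homeobox gene Hoxc13. The labels give all 6 samples as male, on a C57BL/6 background and at 5 dpn. They do not give the zygosity of the allele. The series' own design note describes the replicates as independent.

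During terminal differentiation, keratinocytes replace their plasma membrane with a cornified envelope. Involucrin forms its first scaffold, and transglutaminases then cross-link loricrin, small proline-rich and late cornified envelope proteins onto it. The S100-fused proteins, such as filaggrin, bundle keratin filaments and reinforce the envelope. The S100a proteins are small calcium sensors, and S100a3 is known as a protein of the hair cuticle, the overlapping cell layer that covers the hair shaft. Hoxc13 is a homeobox factor of the hair follicle that is needed for hair shaft formation.

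Values are log2 values from robust multi-array averaging (RMA), so a difference of 1 is a doubling. Each value comes from 1 array per animal sample, and the small number of arrays limits the precision. Mutant replicate 3 stood apart: over all probe sets it correlated at 0.989 and 0.990 with the other mutant arrays, which correlated with each other at 0.997. The Hoxc13 probe set read 9.63, 9.81 and 9.83 in wild type and 8.95, 8.75 and 9.74 in mutant skin, a difference of -0.61 (SE 0.23) that did not pass the test (limma adjusted p = 0.293). Without mutant replicate 3 it was -0.90 (limma adjusted p = 0.00114). Where its probes lie relative to the altered sequence is unknown here, so the level does not check the labels. Of 5 epidermal markers, Krt5, Krt14, Krt1 and Krt10 were strongly present (Krt5 at 12.85 ± 0.12, Krt10 at 13.99 ± 0.04, SD, n = 3 wild type), while Krt2 was near background. Probe sets of 5 Y-linked genes read 2.98 to 4.89 and Xist 11.15 to 11.67 on every array, against the label male. That Y-linked range was used as a guide to background, since no detection calls were given. Its top is set by Usp9y alone, and the other Y-linked probe sets reached 3.93. Of the members, 6 lay at or below 4.89 on every array and 3 (S100a7l2, Sprr2f and Sprr2j-ps) at or below 3.93, so S100a5, Sprr2i and Smcp count as within the range only through Usp9y.

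Among the 45 members, S100a3 and Ivl fell and S100a4 rose in mutant skin. This was 3 of 45, or 6.67%, where 2.08% of all probe sets were called by limma at an adjusted p under 0.05 (1.6% lower, 0.478% higher). The median difference of the members was -0.00467, beside 0.0247 over all probe sets. These 3 calls held in each of the 6 fits that left out 1 array. Of the members, 23 had differences below 0 and 22 above, where 42.4% of all probe sets had differences below 0. In whole skin, fewer cells of a type and less RNA per cell cannot be told apart.

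S100a3 (Entrez gene 20197) had by far the largest difference of any member. It read 13.13, 13.24 and 13.34 in wild type skin and 9.87, 9.76 and 10.36 in mutant skin. All 3 mutant values lay more than the whole spread of either group below the wild type values. The difference was -3.24 (SE 0.15, limma adjusted p = 2.85e-05), or 9.43-fold lower, and it was -3.42 without mutant replicate 3. The mutant level stayed well above the Y-linked range.

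Prr9, a proline-rich protein gene that the rule sets beside S100a3 as a hair cuticle gene, differed far less. It read 14.13, 14.06 and 14.03 in wild type and 13.45, 13.49 and 13.87 in mutant skin. The groups did not overlap, but the difference of -0.47 (SE 0.12, 95% interval -0.75 to -0.20, unadjusted) missed the threshold (limma adjusted p = 0.115). Without mutant replicate 3, whose value was the highest mutant value, it was -0.61 (limma adjusted p = 0.00179). Prr9 sat at the top of the scale: 0.0429% of all wild type values were at or above its lowest one, and the highest value of the arrays was 14.38. S100a3 also lay high in wild type skin, where 0.337% of all values were at or above its lowest one. Whether the top of the scale compressed either difference was not tested.

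Ivl (Entrez gene 16447), the involucrin gene, was the only gene of the epidermal envelope called with all 6 arrays. It read 9.96, 9.83 and 9.998 in wild type and 9.29, 9.21 and 9.06 in mutant skin. Every mutant array was lower than every wild type array, and mutant replicate 3 was the lowest. The difference was -0.74 (SE 0.09, limma adjusted p = 0.00559), a level 1.67-fold lower.

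S100a4 (Entrez gene 20198) encodes a calcium-binding protein of motile and mesenchymal cells and is a close neighbour of S100a3 on the chromosome. It read 9.38, 9.33 and 9.28 in wild type and 10.10, 9.90 and 10.16 in mutant skin, so it went the opposite way from S100a3. The difference was 0.72 (SE 0.09, limma adjusted p = 0.00607), a level 1.65-fold higher. Without variance moderation neither Ivl nor S100a4 was called (limma adjusted p = 0.0875 for each). Of 7 measured macrophage markers, limma called 0, and 0 had an unadjusted p under 0.05. The share of all probe sets with an unadjusted p under 0.05 was not worked out. Counts at that level, here and below, are therefore not read as a result. All 7 differences were above 0, with a median of 0.27. Their median was 0.33 without mutant replicate 3, and limma then called 3 of them higher, which were Adgre1 (0.55, limma adjusted p = 0.0033), Cd163 (0.56, limma adjusted p = 0.0304) and Mrc1 (0.48, limma adjusted p = 0.0348). That fit called 7.95% of all probe sets higher. With all 6 arrays Csf1r, the colony-stimulating factor receptor gene, had the smallest p of the 7 (0.26, limma adjusted p = 0.376). The mean level of the 7 was 8.29 to 8.32 in wild type and 8.34 to 8.81 in mutant skin. In mutant replicate 3 that mean was 8.34, close to wild type, while S100a4 had its highest value there. None of the 7 was within the Y-linked range, and their part in the S100a4 difference was not tested.

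**Figure D1:**
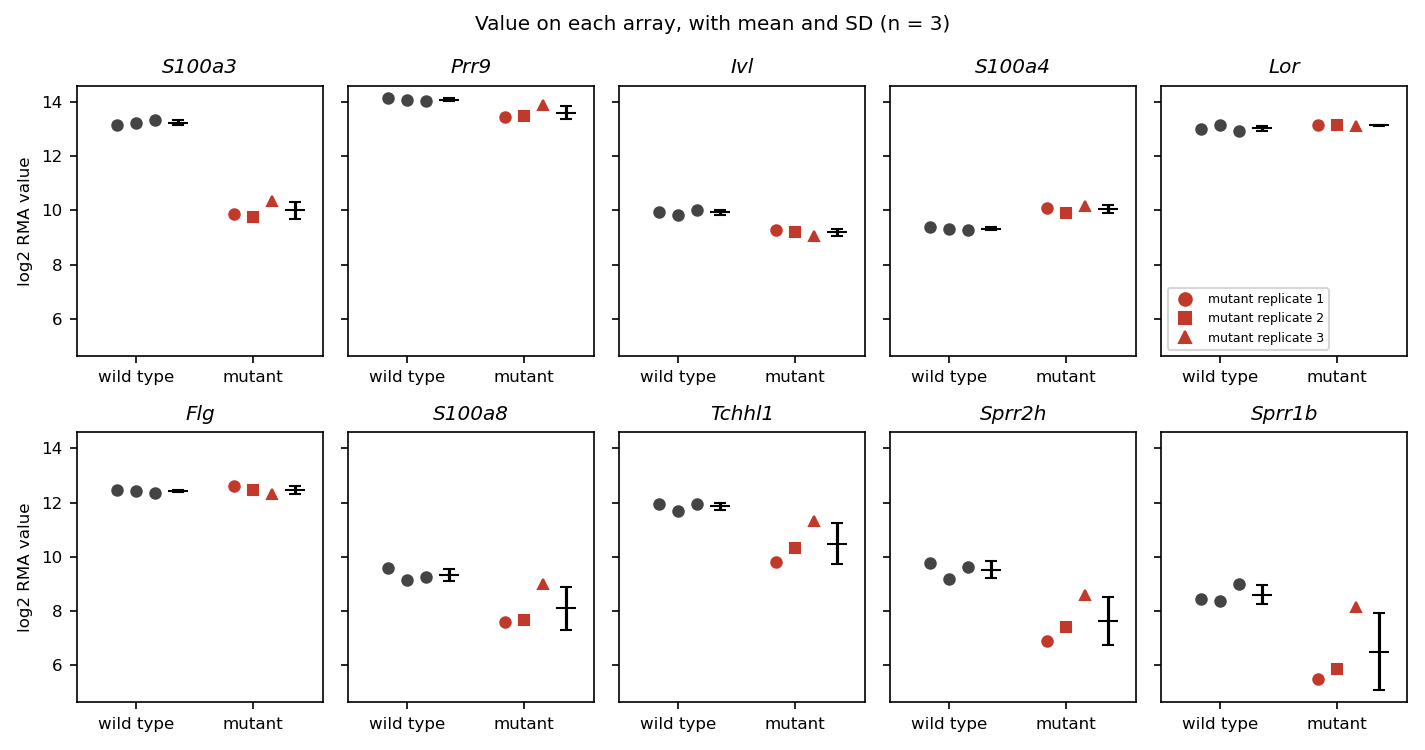
Log2 RMA value (vertical axis) of 10 members on each array, wild type in grey and mutant in red, with mutant replicates 1, 2 and 3 as circle, square and triangle and the mean ± SD (n = 3) at the side. S100a3 falls to near 10 on every mutant array, Ivl and S100a4 shift by less than 1, and in S100a8, Tchhl1, Sprr2h and Sprr1b the triangle of mutant replicate 3 lies nearest to wild type.

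The promoters of these called genes are shown with those of Prr9, Lor and Sprr1b for comparison, to set the sequence beside the difference in response. Each is the 120 bases before the RefSeq transcription start in GRCm38.p6, in the direction of the gene. S100a3 has 4 starts in the table, and the stretch shown is the one that holds a TATA box; the arrays do not tell which start was used. Capitals mark TATAAA (the TATA box), TGANTCA (the AP-1 site) and TCGTAA (part of the sequence that HOX13-type factors bind in vitro), searched on both strands. No match overlapped another in these stretches. The stretches lie at chr3:90588443-90588562 (plus strand), chr3:92123948-92124067 (minus), chr3:92573736-92573855 (minus), chr3:90603650-90603769 (plus), chr3:92083143-92083262 (minus) and chr3:92438780-92438899 (minus).
S100a3: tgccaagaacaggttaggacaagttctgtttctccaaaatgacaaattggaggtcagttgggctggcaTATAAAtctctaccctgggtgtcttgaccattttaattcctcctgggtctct
Prr9: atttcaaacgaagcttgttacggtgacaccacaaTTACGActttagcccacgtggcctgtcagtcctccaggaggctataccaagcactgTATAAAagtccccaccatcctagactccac
Ivl: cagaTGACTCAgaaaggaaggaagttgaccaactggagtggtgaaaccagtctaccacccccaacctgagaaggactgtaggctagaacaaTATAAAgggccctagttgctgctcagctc
S100a4: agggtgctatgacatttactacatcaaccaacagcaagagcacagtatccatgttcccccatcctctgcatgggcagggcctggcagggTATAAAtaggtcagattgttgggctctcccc
Lor: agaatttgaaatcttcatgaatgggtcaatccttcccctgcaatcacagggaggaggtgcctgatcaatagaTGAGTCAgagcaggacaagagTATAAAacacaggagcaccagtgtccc
Sprr1b: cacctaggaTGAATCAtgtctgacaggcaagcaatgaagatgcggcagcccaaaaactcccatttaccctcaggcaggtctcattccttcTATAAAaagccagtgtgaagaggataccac

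All 6 stretches held a TATA box, but that of S100a3 was picked for it. Only 1 of its 4 starts had TATAAA in the 300-base window described below. The first base of the box lay at positions -31 to -27 from the start except in S100a3 (-52). An AP-1 match stood in Ivl, Lor and Sprr1b. The HOX13-type letters were found in Prr9 alone of these, at position -86 from the start, as the reverse complement TTACGA. Over whole windows of 300 bases (250 before to 50 after the start), 39 of the 45 members had an entry, with 43 windows in all. TATAAA was in 48.8% of the member windows and 13.6% of all 32851 windows, TGANTCA in 34.9% and 7.81%, and TCGTAA in 2.33% (Prr9 only) and 1.6%. By subfamily the AP-1 letters stood in the windows of 7 of the 8 Sprr genes with an entry and of 0 of 13 Lce genes. The window of Prr9 also held the AP-1 letters, outside its printed stretch. A match is a description of the letters and not a binding site.

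Late cornified envelope genes, which encode cross-linked proteins of the upper epidermis, were read by class. In wild type skin the 11 Lce1 genes read from 6.74 (Lce1g) to 11.95 (Lce1a2), and levels of different probe sets are not comparable as amounts of RNA. All 11 Lce1 differences were above 0, from 0.003 (Lce1g) to 0.37 (Lce1i), with a median of 0.23, where 42.4% of all probe sets were below 0. None passed the limma test, and 2 had an unadjusted p under 0.05, a level with no share of all probe sets worked out. Lce1i read 10.69, 10.37 and 10.60 in wild type and 11.27, 11.08 and 10.43 in mutant skin, so mutant replicate 3 fell inside the wild type range (difference 0.37, SE 0.21, limma adjusted p = 0.455). The groups did not overlap for Lce1h only (difference 0.32, SE 0.11, limma adjusted p = 0.225). The Lce1 genes are neighbours and close in sequence, so their probe sets may share signal and are not 11 separate observations.

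On mutant replicate 3 all 11 Lce1 genes read below both other mutant arrays, by a median of 0.61 against their mean, and 4 of the 11 were inside the wild type range. Over all probe sets, 37.5% were below both other mutants on that array and 44.7% above both. Without mutant replicate 3, 7 of 11 Lce1 genes were called higher (median 0.40), where 7.95% of all probe sets were called higher. That fit rests on the pair of mutant arrays that correlated at 0.997.

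Of the 3 measured Lce3 genes, none passed the limma test, and Lce3a had an unadjusted p under 0.05. Lce3a read 5.28, 5.41 and 5.84 in wild type and 4.60, 4.91 and 5.19 in mutant skin, without overlap and low on the scale of the arrays. Its difference of -0.61 (SE 0.19) was not called (limma adjusted p = 0.189), and it was called without mutant replicate 3 (-0.76, limma adjusted p = 0.0246). Lce3b and Lce3f differed by 0.00567 (95% interval -0.31 to 0.32) and 0.06 (-0.16 to 0.28).

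The small proline-rich genes encode cross-bridging proteins of the envelope. None of the 9 measured passed the limma test, and 3 had an unadjusted p under 0.05, again with no share of all probe sets worked out. All 9 differences were below 0, with a median of -0.15, from -2.10 (Sprr1b) to -0.00467 (Sprr2i), where 42.4% of all probe sets were below 0. Sprr1b read 8.45, 8.38 and 9.001 in wild type and 5.51, 5.88 and 8.14 in mutant skin. The groups did not overlap, but mutant replicate 3 lay much nearer to wild type than to the other mutants. Its difference of -2.10 (SE 0.62) gave a limma adjusted p of 0.175, and it was -2.91 (limma adjusted p = 9.77e-05) without that array. Sprr2h read 9.78, 9.18 and 9.63 in wild type and 6.89, 7.43 and 8.61 in mutant skin, in the same pattern. Its difference was -1.89 (SE 0.40, limma adjusted p = 0.0688), and -2.37 (limma adjusted p = 4.15e-04) without mutant replicate 3.

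Sprr1a is the close relative of Sprr1b. It read 13.74, 13.76 and 13.78 in wild type and 13.49, 13.67 and 14.06 in mutant skin, with the mutant values on both sides of wild type (difference -0.02, 95% interval -0.34 to 0.30). The groups did not overlap for Sprr2f either (-0.34, SE 0.10, limma adjusted p = 0.178), but all of its values, like those of Sprr2i and Sprr2j-ps, were within the Y-linked range. Sprr2d, Sprr2k and Sprr3 differed by -0.16, -0.13 and -0.15. On mutant replicate 3, 7 of the 9 Sprr genes read above both other mutants, the reverse of the Lce1 genes, and 5 were inside the wild type range. Because the Sprr2 genes resemble one another closely, a probe set may also read its relatives.

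Among the S100-fused genes, Flg, the filaggrin gene, read 12.48, 12.43 and 12.37 in wild type and 12.61, 12.45 and 12.30 in mutant skin, with mutant values on both sides of wild type. Its difference was 0.03, with a 95% interval of -0.19 to 0.24. Hrnr, the hornerin gene, was at -0.03 (-0.40 to 0.35) and Rptn, the repetin gene, at -0.13 (-0.58 to 0.31). Tchhl1, a trichohyalin-like gene that lies beside trichohyalin, had a larger difference. It read 11.95, 11.69 and 11.94 in wild type and 9.83, 10.33 and 11.31 in mutant skin. The groups did not overlap, and the mutant arrays spread over more than 1 unit. The difference of -1.37 (SE 0.33) missed the threshold (limma adjusted p = 0.104), and it was -1.78 (limma adjusted p = 3.74e-04) without mutant replicate 3.

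The remaining single genes of the complex showed small differences. Lor, which encodes loricrin, the main protein of the envelope, read 12.99, 13.14 and 12.93 in wild type and 13.16, 13.14 and 13.11 in mutant skin (difference 0.12, 95% interval -0.06 to 0.30). Crct1 was at 0.00833 (-0.20 to 0.22) and Kprp, a keratinocyte proline-rich protein gene, at -0.10 (-0.40 to 0.20). Smcp, a gene of sperm mitochondria, lay within the Y-linked range on every array. Lor and Prr9, which are neighbours among the measured members, therefore read on opposite sides of 0.

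**Figure D2:**
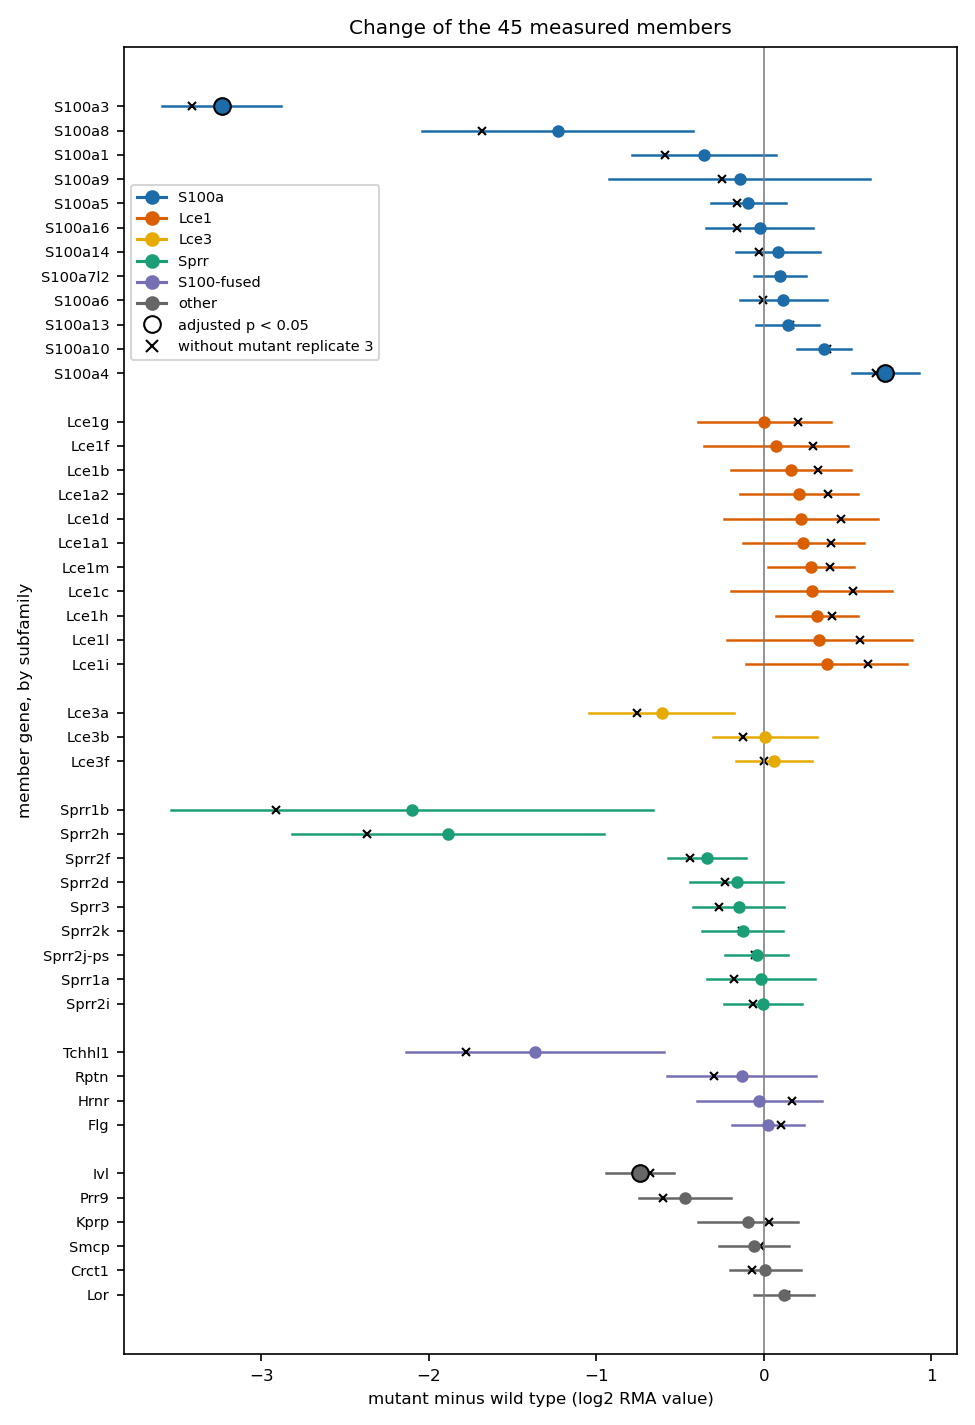
Difference of mutant minus wild type (log2, horizontal axis) for the 45 members grouped by subfamily, with unadjusted 95% intervals from limma; large outlined points passed an adjusted p under 0.05 and crosses are the fit without mutant replicate 3. S100a3 at -3.24, Ivl at -0.74 and S100a4 at 0.72 are outlined, the Lce1 points all lie above 0 (Lce1g at 0.003) and the Sprr points all below 0 (Sprr2i at -0.00467).

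The S100a genes other than S100a3 and S100a4 did not pass the test. S100a8 and S100a9 encode the subunits of calprotectin, a protein of neutrophils and stressed keratinocytes. S100a8 read 9.58, 9.15 and 9.27 in wild type and 7.62, 7.69 and 9.01 in mutant skin, without overlap but with mutant replicate 3 close to wild type. Its difference was -1.23 (SE 0.35, limma adjusted p = 0.158), and -1.68 (limma adjusted p = 1.82e-04) without that array. S100a9 read 7.05, 6.16 and 7.55 in wild type and 6.38, 6.95 and 6.98 in mutant skin, all inside the wild type range (-0.15, 95% interval -0.92 to 0.63). Of 10 measured neutrophil markers limma called 0, and 3 had an unadjusted p under 0.05, with no share of all probe sets worked out. Camp, the cathelicidin gene, had the smallest p of them (difference -0.79, limma adjusted p = 0.137). The median of the 10 markers was -0.062 with all 6 arrays. It was -0.15 without mutant replicate 3, and limma then called 1 lower, the granule gene Ngp (-0.34, limma adjusted p = 0.038). That fit called 6.23% of all probe sets lower. The mean level of the 10 markers was 5.36 to 5.47 in wild type and 5.2 to 5.36 in mutant skin, and 2 of them were within the Y-linked range on every array. Their part in the S100a8 difference was not tested.

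S100a10, the partner of annexin A2, came closest to the threshold of those not called. It read 11.89, 11.95 and 11.87 in wild type and 12.22, 12.34 and 12.23 in mutant skin, without overlap (difference 0.36, SE 0.07, limma adjusted p = 0.0506). Its call depended on the setting: it was called higher with the filter on low values (limma adjusted p = 0.044), repeated quantile normalisation (0.0479), the trended robust prior (0.032), array weights (0.0115) and without mutant replicate 3 (0.0152), and not under the other alternatives. S100a1 differed by -0.36 (limma adjusted p = 0.427) and, with mutant replicate 3 above wild type left out, by -0.59 (limma adjusted p = 0.00332). S100a13, S100a14, S100a16 and S100a6 lay between -0.03 and 0.14. S100a5 and S100a7l2 read within the Y-linked range.

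Without overlap between the groups, 9 members were lower (S100a3, S100a8, Prr9, Sprr2f, Sprr2h, Sprr1b, Ivl, Lce3a and Tchhl1) and 5 higher (S100a13, S100a4, S100a7l2, Lce1h and S100a10). That is 20.0% lower, where all probe sets gave 7.82%, and 11.1% higher, where all gave 12.5%. In either direction it is 14 members, or 31.1%, beside 20.3% of all probe sets. Without mutant replicate 3, 10 members were called lower and 9 higher, or 42.2% of the members, where 14.2% of all probe sets were called (6.23% lower, 7.95% higher).

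**Figure D3:**
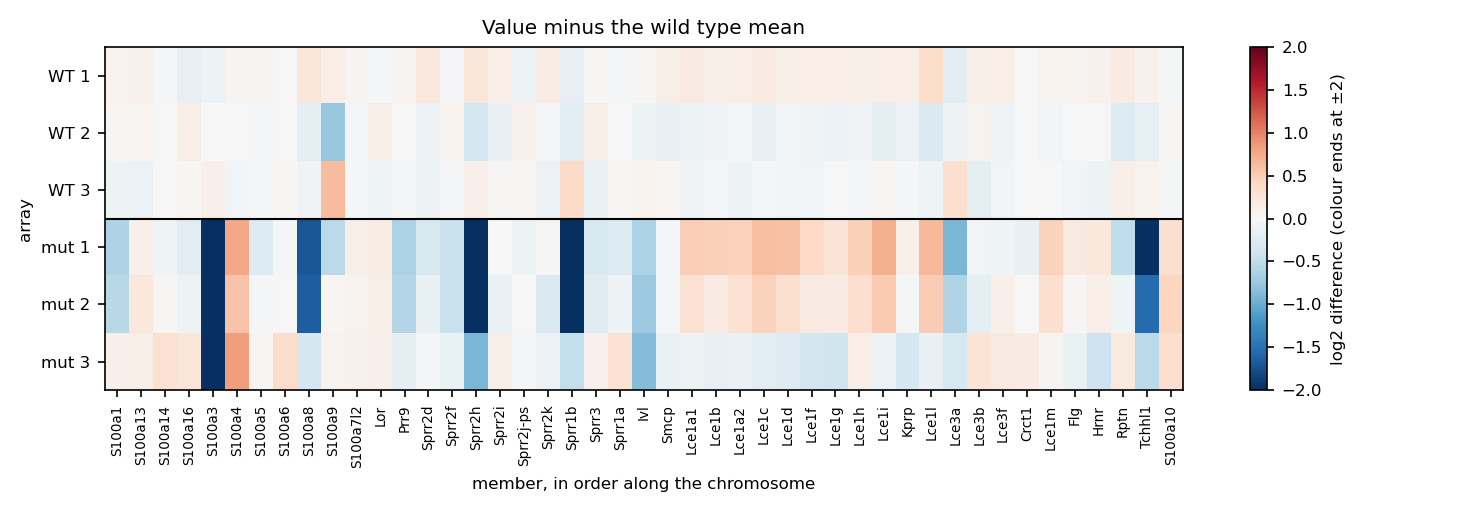
Each array's value minus the wild type mean (colour, log2, ending at ±2) for the 45 members in their order along the chromosome, wild type arrays above the line and mutant arrays below. The run of Lce1 genes is red in mutant replicates 1 and 2 and mostly pale blue in mutant replicate 3, S100a3 is dark blue in all 3 mutants, and S100a4 beside it is red in all 3.

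In order along the chromosome, all measured members from Prr9 through the Sprr genes and Ivl to Smcp had differences below 0, and only Ivl of them was called. Sprr2f, Sprr2i, Sprr2j-ps and Smcp in this run lay within the Y-linked range on every array. All measured members from Lce1a1 to Lce1i, which come next, had differences above 0. Over all probe sets 42.4% of differences were below 0. S100a3 and S100a4 were adjacent measured members with opposite calls, and only S100a2 lies between them in the RefSeq table. Tchhl1 was followed by S100a10 among the measured members, at -1.37 and 0.36.

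Pairs of members were compared as ratios within an array, for 5 pairs chosen with the values known. Of these, S100a3 with Ivl and Prr9 with Lor set a gene named by the rule as hair cuticle against an envelope gene. S100a3 minus Prr9 was -1.002, -0.83 and -0.69 in wild type and -3.58, -3.73 and -3.52 in mutant skin, a shift of -2.77. S100a3 minus Ivl shifted by -2.50, from 3.17, 3.41 and 3.34 to 0.58, 0.56 and 1.29. Prr9 minus Lor shifted by -0.59, from 1.15, 0.93 and 1.10 to 0.28, 0.36 and 0.76. For each of these pairs, and for S100a3 minus S100a4 (-3.96), the groups did not overlap (two-sided exact permutation p = 0.1, adjusted over the 5 pairs 0.125). With 20 arrangements of 3 against 3, no p below 0.1 can be reached. S100a8 minus S100a9 shifted by -1.09 with overlapping groups (exact permutation p = 0.2, two-sided, 0.2 adjusted over the pairs).

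S100a3 was then placed beside hair genes outside the member rule. Of 26 measured hair shaft, cuticle and root sheath genes on a list of such genes, 19 fell and 0 rose, with a median of -3.82. Over all probe sets 1.6% were called lower and 0.478% higher. The root sheath keratin genes Krt25, Krt71, Krt73 and Krt27 were not called (-0.00533, -0.11, 0.047 and -0.25). Krt72 and Krt26, also root sheath keratin genes, were called lower (-2.20 and -1.90). The cuticle keratin genes Krt82 (-5.30, SE 0.11, limma adjusted p = 3.93e-07) and Krt35 (-6.91, limma adjusted p = 3.32e-07), the shaft gene Vsig8 (-6.29) and the keratin gene Krt33b (-6.13) had the smallest p-values. S100a3 passed the threshold in the same direction as these genes, at -3.24. The list was drawn up with earlier results known and is not independent evidence of its direction. Trichohyalin, the neighbour of Tchhl1 on the chromosome and itself on that list, differed by -0.25 (limma adjusted p = 0.292).

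Cornification genes outside the complex also had a median near 0. Of 44 measured, 2 fell and 0 rose, with a median of 0.016. Tgm3, the transglutaminase that cross-links envelope and hair proteins, went from 9.07 ± 0.06 to 7.64 ± 0.22 (SD, n = 3 each), a difference of -1.43 (SE 0.11, limma adjusted p = 6.00e-04), and it was called in each of the 6 fits without 1 array. St14, the matriptase gene, fell by 0.56 (SE 0.09, limma adjusted p = 0.0196), and that call was kept in 1 of the 6 fits, the one without mutant replicate 3. Without that array 13 of the 44 were called lower and 6 higher by limma, where 6.23% of all probe sets were called lower and 7.95% higher. Among the Lce, Sprr and 7 single envelope genes of the complex (30 measured) only Ivl was called with all 6 arrays, with a median of 0.00433. Over all probe sets 1.6% were called lower and 0.478% higher. Without mutant replicate 3, 5 of the 30 were called lower and 7 higher, beside the 6.23% and 7.95% above.

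**Figure D4:**
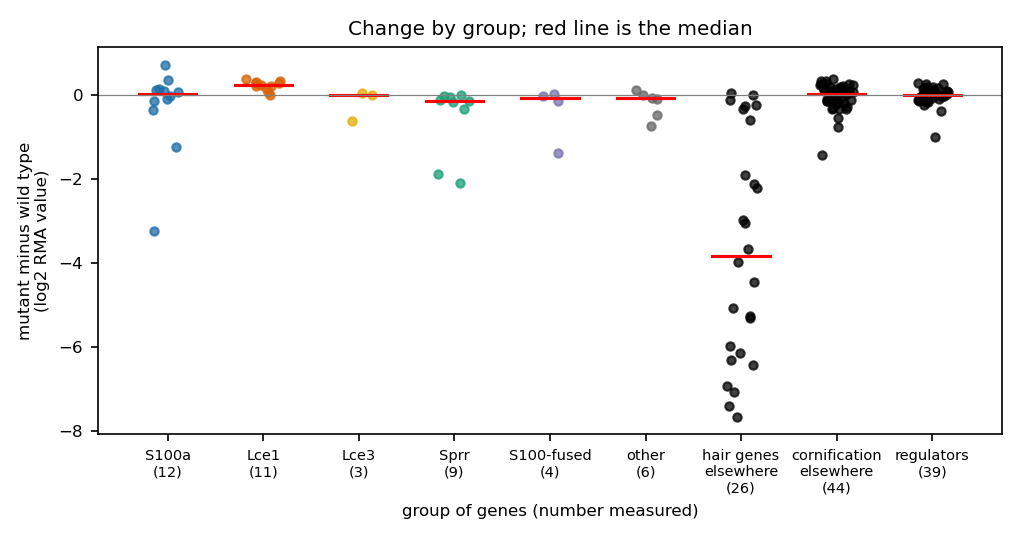
Difference of mutant minus wild type (log2, vertical axis) for each gene of the 6 subfamilies and of 3 lists outside the member rule (hair, cornification and regulators), with the number measured in brackets and the median as a red line. Most members lie near 0, S100a3 is the lowest member at -3.24, and the hair genes elsewhere have a median of -3.82.

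**Figure D5:**
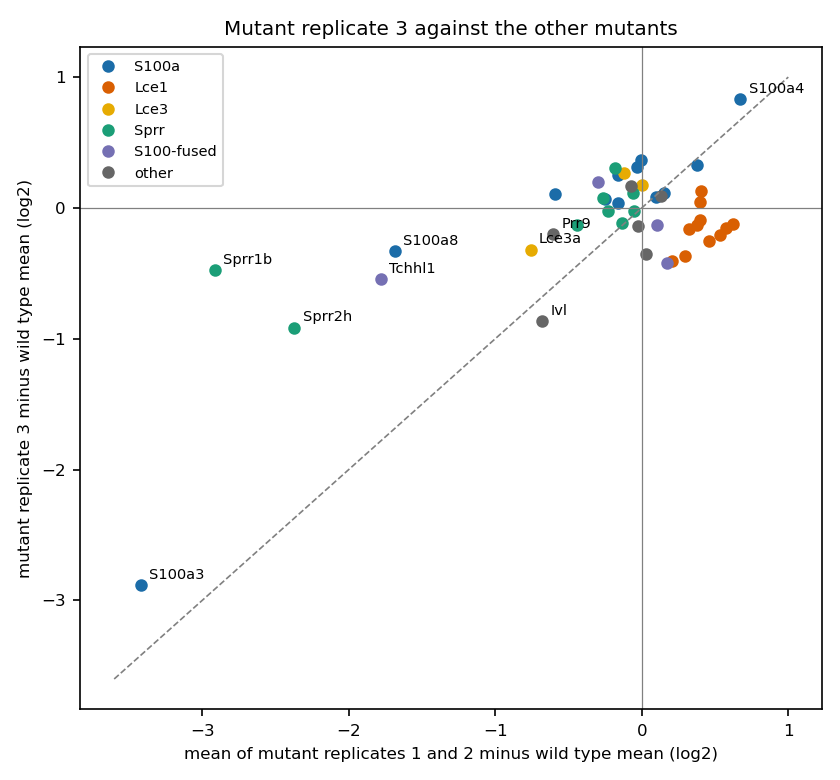
Mutant replicate 3 minus the wild type mean (vertical axis, log2) against the mean of mutant replicates 1 and 2 minus the wild type mean (horizontal axis, log2) for the 45 members, coloured by subfamily, with equality as a dashed line. Ivl and S100a4 lie close to the line and S100a3 0.54 above it, whereas Sprr1b, Sprr2h, S100a8 and Tchhl1 lie above it and the Lce1 genes below it.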

How the data were processed

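Per the labels, total RNA of dissected skin was amplified from oligo(dT) primers, labelled with biotin and hybridised to Affymetrix arrays. The deposited values are log2 summaries per probe set, made with RMA according to the submitters' processing notes, which name no version. RMA subtracts background and quantile normalises the arrays, so a shift of total RNA cannot be seen. The table held 16395 probe sets, of which 64 controls were left out and 16331 tested. The platform annotation gave 1 symbol for 15644 probe sets, several for 0 and none for 687, and 15617 were found in the RefSeq table (GRCm38.p6), with 0 renamed.

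Groups were compared with limma 3.58.1 (R 4.3.3; lmFit and eBayes, two-sided, no filter or block) with Benjamini-Hochberg adjustment over all 16331 probe sets at 0.05. The fit was tested on simulated data with independent noise of equal spread in both groups. That setting held no outlying array, so it does not bear on calls that change with mutant replicate 3. Nothing says that same-numbered samples were paired, and the correlations of same-numbered deviations were 0.036, -0.119 and -0.0873, so the numbers were not treated as pairs. Each limma p-value tests the group difference against the spread within the groups, moderated in the main fit by the variance over all probe sets. The p-values rest on these 6 samples only.

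The members and lists were chosen with earlier results of these data known. Named were S100a3, Prr9, Ivl, Lor, Flg, Hrnr, Rptn, S100a8 and S100a9, every called member, the members with the largest and smallest difference in each subfamily and, from each outside list, up to 4 called genes or the gene with the smallest p; members named beyond these were chosen after their values were seen. Alternatives were a filter on means under 6, repeated quantile normalisation, centring, a trended robust prior, weighting the arrays, blocking on replicate number, an unmoderated variance and omitting 1 array at a time. Figures were drawn with matplotlib 3.10.9.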

Additional observations from a re-analysis of the deposited data

How the results depend on the processing

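S100a3 kept its direction and its call under every alternative run. The count of members called lower was 2 with all arrays, 10 with array weights (which gave mutant replicate 3 a weight of 0.234 and the other arrays 1.23 to 1.44) and 1 without variance moderation; leaving out 1 array gave 2 to 10, the 10 without mutant replicate 3. The count called higher was 1, and it was 2 with the low-value filter, with repeated quantile normalisation and with the trended robust prior (S100a10 added each time), 5 with array weights, 0 without moderation (where limma's ordinary fit had fewer degrees of freedom) and 1 to 9 when 1 array was left out, the 9 without mutant replicate 3. Shares of all probe sets called were worked out only with all arrays (2.08%) and without mutant replicate 3 (14.2%). Counts under the other settings, such as array weights, have no such share beside them and are not read as a trait of the members. Prr9 was called with array weights (-0.57, limma adjusted p = 0.00407) and without mutant replicate 3, and ranged from -0.61 to -0.39 when 1 array was left out. Ivl was not called without moderation (-0.74, adjusted p = 0.0875). With the replicate number as a block, Lce3a was called lower (-0.61, adjusted p = 0.0414), S100a3 was at -3.24, and the counts were 3 lower and 1 higher. Among the 12 other named members, 131 of 154 values kept direction and side of the threshold, 11 passed it, 1 lost it (S100a4 without moderation, adjusted p = 0.0875) and 11 reversed. The reversals were of differences near 0 that never passed: Hrnr at 0.13 with array weights, and, when 1 array was left out, Flg (-0.0518 to 0.10), Hrnr (-0.14 to 0.17), Rptn (-0.30 to 0.0528), S100a9 (-0.53 to 0.17) and Sprr2i (-0.0757 to 0.0615). The causes were not tested. The S100a median changed sign without mutant replicate 3 (0.029 to -0.094), and so did the Lce3 median (0.0057 to -0.12); both were also below 0 with array weights (-0.068 and -0.089), and Lce3 was at -0.083 without wild type replicate 3. The Lce1 median ranged from 0.11 (without mutant replicate 1) to 0.40 (without mutant replicate 3). With 3 arrays a group and no detection calls, differences of members near the Y-linked range are uncertain.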

Other observations

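Genes known to regulate the complex were called in neither direction in the fit of all arrays. Of 39 measured, limma called 0 with all 6 arrays, and 2 had an unadjusted p under 0.05, with no share of all probe sets worked out. Without mutant replicate 3 it called 8 lower and 1 higher, where 6.23% of all probe sets were called lower and 7.95% higher. The median difference of the regulators with all 6 arrays was 0.0117. Ovol1, a zinc finger factor of epidermal differentiation, had the smallest p (-0.38, unadjusted p = 0.0402, limma adjusted p = 0.322), and it was at -0.57 (limma adjusted p = 0.00312) without mutant replicate 3, whose value of 9.13 equalled the wild type mean to 2 decimals.

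Of 4 measured wound keratin genes limma called 0, 0 had an unadjusted p under 0.05, and 1 (Krt75, -0.44, limma adjusted p = 0.0083) was called lower without mutant replicate 3. That fit called 6.23% of all probe sets lower. With all 6 arrays the smallest p was that of Krt6b (-0.67, limma unadjusted p = 0.0699, adjusted p = 0.391).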
